A study of Homo sapiens with 480 samples.

Results

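The comparison described here is phorbol 12-myristate 13-acetate (PMA) against its solvent dimethyl sulfoxide (DMSO) in parental Jurkat cells, the line without the viral construct carried by its clone J-Lat A2. The study sorted single cells of both lines into 480 wells on 5 plates after 24 h of treatment, as a model of HIV latency reversal. Treatments in the study were DMSO, PMA and the histone deacetylase inhibitor SAHA, which was given at 1 uM. Wells of the comparison were those labelled as Jurkat cells with PMA or with DMSO on the 3 plates that hold both, P2769, P2770 and P2771. Wells were kept if their total reached 0.1 of the plate median and counts were present for 500 genes or more. All 54 wells of the comparison passed, of 410 that passed in the whole series. They comprise 18 DMSO wells, 6 on each plate, and 36 PMA wells, 12 on each plate. The DMSO cells received 0.1% DMSO by volume and the PMA cells 1 ug/mL PMA. Both groups are the same line with no other agent, grown in the same medium and sorted after DAPI staining. Another 12 Jurkat DMSO wells, on plates without Jurkat PMA wells, were not used.

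Jurkat is a leukaemic T cell line, derived from T cell acute lymphoblastic leukaemia and kept in culture as an immortal line. PMA imitates diacylglycerol, the lipid messenger that the T cell receptor releases, and so switches on protein kinase C and the RasGRP exchange factors without engaging the receptor. From there the signal runs through RAS and ERK to AP-1 and EGR transcription factors, and through protein kinase C theta to NF-kB. PMA supplies no calcium signal, which full induction of many cytokine genes also needs.

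Adding the wells of each treatment on each plate gave 3 DMSO sums of 2463056 to 3339641 counts and 3 PMA sums of 5865989 to 6996472 counts. Median wells were alike in depth, with 512920 counts under DMSO and 526565 under PMA, and had counts for a median of 5767.5 and 5521 genes. Wells of plate P2769 had fewer genes than those of the other plates in both groups, with plate medians of 4718 and 4776. The median share of mitochondrially encoded counts was 3.20% under DMSO and 3.67% under PMA. Levels are TMM-normalised counts per 1000000 (CPM) of each sum, a scale that is not divided by gene length, so levels of different genes are not compared. Design text gives 2 experimental batches with 2 and 3 plates, so the 3 plates used belong to 1 batch, and nothing says that they came from separate flasks. The p-values therefore measure the spread between plates, which may be technical. Reads carry no molecular identifiers, and every interval or limit given here covers counting error only. A fold given as "at least" is set against 3 read counts over the DMSO group. It is no bound over cells, since 18 DMSO cells were read and 1 cell can give many counts. Intervals of ratios have the same limit.

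The labelled cell type was checked first. Of 10 T lineage markers 9 were tested and all 9 were higher with PMA on 3 of 3 plates. Their summed level was 4622 to 4908 CPM in the DMSO sums and 10726 to 11685 CPM in the PMA sums. CD4, the coreceptor of helper T cells, had no count in any of the 54 wells. Marker sums of monocytes or granulocytes stayed at or below 5.28 CPM, of NK cells at or below 8.35 CPM, of erythroid cells or megakaryocytes at or below 3.54 CPM and of epithelial cells or fibroblasts at or below 2.22 CPM in every sum. Of the B cell markers CD79A, a chain of the B cell receptor that T cell leukaemias can also express, was the one tested, and CR2 had 93 PMA counts in 1 well. Their sum was 4.79 to 5.11 CPM under DMSO and 42.1 to 65.1 CPM under PMA, and CD79A did not pass the test (adjusted p = 0.0908, edgeR's quasi-likelihood test with Benjamini-Hochberg adjustment). HIVmini, the viral feature of the table, had 2 counts in the DMSO sums and 1 count in the PMA sums.

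With PMA, 9 of 15 T cell receptor genes that were tested, 8 of 24 of the actin cytoskeleton and 5 of 19 surface proteins of T cell activation rose. MYC fell, as did 6 of 17 chaperone genes, 5 of 37 genes of ribosome biogenesis, 4 of 16 of lymphoid precursors and 4 of 50 of G2 and M phase. Of 9240 genes tested, 200 were called at an adjusted p under 0.05, which is 2.16% of those tested (edgeR's quasi-likelihood test with plate as a block, two-sided, Benjamini-Hochberg adjustment over all tested genes). Of these 200, 58.5% were higher with PMA (1.27% of the genes tested) and 83 genes were lower (0.898%). All 200 called genes moved in the called direction on 3 of 3 plates. Over all genes tested, 2192 were higher and 1587 lower on 3 of 3 plates, and the median log2 change was 0.16. Of the genes that rose, 10 had no count in any DMSO sum. The others rose by a median of 2.10 on the log2 scale, and the 83 that fell had a median log2 change of -1.32. The split differed in the alternative that gave each well equal weight, which also used log2(CPM + 1) per well and limma in place of edgeR: 356 genes were higher and 543 lower and the median log2 change was -0.11. Gene lists are described below by counts and medians beside these values for all genes. A low-expressed gene could enter the test through the PMA sums alone, so counts and medians of list members are not evidence that a list moved.

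**Figure D1:**
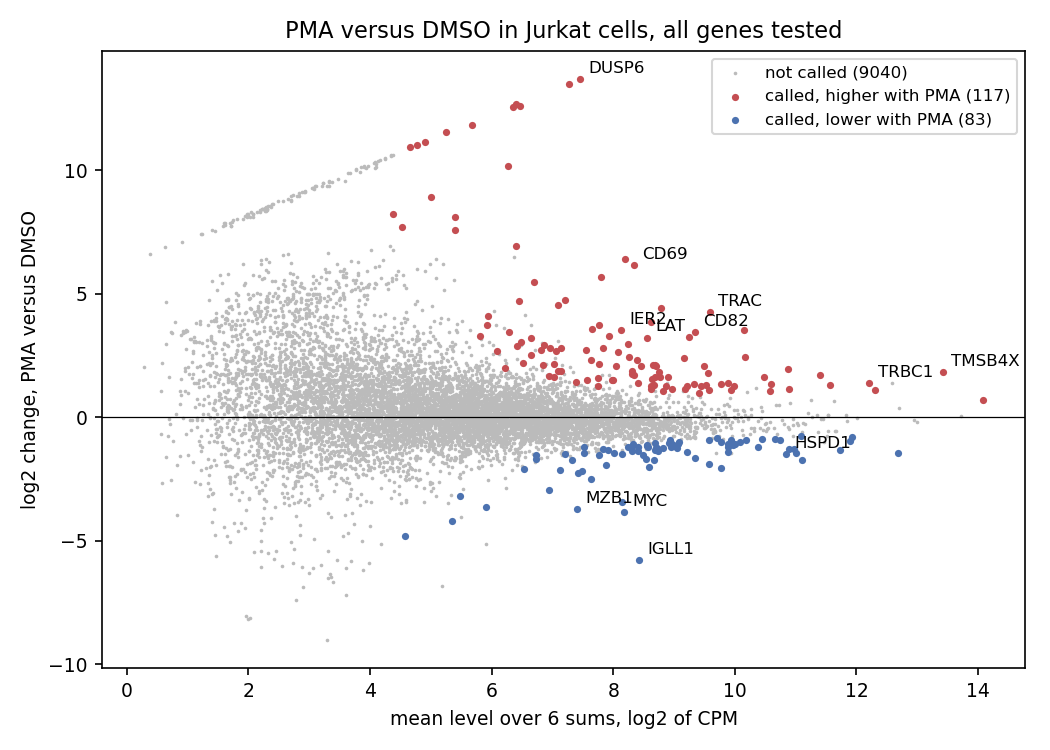
Log2 change with PMA against DMSO (vertical axis) by mean level over the 6 sums (horizontal axis, log2 of CPM), 1 point per gene tested. Red points are the called genes that were higher, blue points the 83 that were lower, and grey points the 9040 not called; the straight upper edge is formed by genes with no DMSO count, whose fitted change is set by the prior count and is no measured fold.

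The feedback arm of the ERK pathway held the gene with the highest lower bound by read counts. DUSP6, a cytoplasmic phosphatase that removes the activating phosphates from ERK, had no count in any of the 18 DMSO wells. Its PMA levels were 294 CPM on P2769, 340 CPM on P2770 and 418 CPM on P2771, from 6719 counts in 28 of 36 wells. Against a limit of 3 counts over the DMSO group, 0.343 CPM, this is at least 1011-fold higher by read counts alone (edgeR's quasi-likelihood test, adjusted p = 0.00266). The gene lies on chromosome 12 at 89347232 to 89353271, minus strand (GENCODE 29 coordinates, GRCh38). DUSP10, a phosphatase of the JNK and p38 kinases, rose from 1 DMSO count to 810 PMA counts, in 15 of 36 wells, a depth-adjusted ratio of 366 (95% counting interval 65.4 to 14458, adjusted p = 0.0412 by edgeR's quasi-likelihood test, or 0.0566 without P2769 and 0.206 without P2770). Of 13 tested genes of the ERK feedback list 2 rose and none fell, with a median log2 change of 3.16. This median depended on the processing, from 1.12 with equal weight per well to 3.91 without P2770. DUSP6 and SPRY4, with no DMSO count, entered the test through the PMA sums alone. The remaining members did not pass: DUSP2 had means of 14.5 CPM under DMSO and 98.3 CPM under PMA (adjusted p = 0.0838), SPRY4 no DMSO count and a mean of 9.72 CPM in 15 of 36 wells (adjusted p = 0.274) and the RAS GTPase-activating protein RASA2 means of 9.41 and 90.1 CPM (adjusted p = 0.0546), each by edgeR's quasi-likelihood test.

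Immediate early transcription factors, the first genes that such signals switch on, were mostly low after 24 h. Of 29 listed genes 13 were tested, and 1 rose and 1 fell. IER2, a nuclear immediate early protein, had 9.72, 87.97 and 71.3 CPM in the DMSO sums and 375, 576 and 550 CPM in the PMA sums. The groups did not overlap, and the log2 change was 3.51 ± 0.50 (SE; edgeR's quasi-likelihood test, adjusted p = 0.0197). The member that fell was MYC, described with growth genes. EGR1, a zinc finger factor induced through ERK, had no DMSO count and 15.0, 16.1 and 12.9 CPM in the PMA sums. These are 283 counts in 22 of 36 wells, at least 42.6-fold higher, but its adjusted p was 0.194 by edgeR's quasi-likelihood test. EGR2 likewise had no DMSO count and 477 PMA counts in 10 of 36 wells (edgeR's quasi-likelihood test, adjusted p = 0.116). FOS had a count in no DMSO well and in 4 PMA wells, JUN had 2 counts in 1 DMSO well and none with PMA, and neither was high enough to be tested.

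The window of 250 bases before the EGR1 start is shown because EGR1 is a standard target of serum response factor downstream of ERK. RefSeq places it on the plus strand at chr5:138465229-138465478 (GRCh38.p14), and no GENCODE exon overlaps it. Capitals mark a match to the first 9 letters of 1 spelling of a CArG box, the site type of serum response factor, searched as CCATATTAG on both strands. Other spellings were not searched. The window also holds ccatatatgg, a CArG box of another spelling, which is left in lower case.
EGR1: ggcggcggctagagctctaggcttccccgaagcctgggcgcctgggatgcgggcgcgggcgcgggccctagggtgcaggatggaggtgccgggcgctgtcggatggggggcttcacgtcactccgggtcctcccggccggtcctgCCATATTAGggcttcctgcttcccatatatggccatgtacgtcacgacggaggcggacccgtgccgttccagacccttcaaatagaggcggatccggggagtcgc
The first base of the match is at -105 from the RefSeq start. This 1 spelling was found in 0.0806% of the 27305 RefSeq windows, 0.092% of those of tested genes, and in none of the 89 windows of genes that rose or the 75 of genes that fell. These are not shares of CArG boxes as a whole. The AP-1 motif TGANTCA was in 6.6% of all windows, 3.36% of those of tested genes, 4.49% of those of genes that rose and 2.67% of those of genes that fell. The E-box CACGTG, which MYC and its partners bind, was in 6.49% of all windows, 9.49% of those of tested genes, 8.99% of those of genes that rose and 9.33% of those of genes that fell. The cAMP response element TGACGTCA was in 1.77%, 3.28%, 4.49% and 8% of these windows in the same order. For the EGR motif GCGTGGGCG the shares were 0.71%, 1.16%, 0% and 2.67%, and for the NF-kB motif GGGANTTTC they were 1.15%, 1.04%, 1.12% and 1.33%. These matches describe letters in a window and not binding.

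Among surface proteins of T cell activation, 5 of 19 tested members rose and 2 fell, at a median log2 change of 1.48. CD69, the C-type lectin that appears first on activated T cells, had 5.92, 47.3 and 0 CPM in the DMSO sums and 735, 576 and 585 CPM in the PMA sums. It was counted in 2 of 18 DMSO wells and in 36 of 36 PMA wells. With every well thinned to 100000 counts these became 2 and 35 wells. The log2 change was 6.16 ± 1.11 (SE; edgeR's quasi-likelihood test, adjusted p = 0.044). The DMSO level thus rested on 2 wells, and without P2769 the adjusted p was 0.0868 by the same test.

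CD82, a tetraspanin of the immune synapse, was present in all wells of both groups. Its DMSO levels were 87.9, 92.1 and 148.6 CPM and its PMA levels 856, 1233 and 1468 CPM, so that every PMA sum was above every DMSO sum. It rose by 3.44 ± 0.19 on the log2 scale (SE; edgeR's quasi-likelihood test, adjusted p = 0.00154). CD58, the ligand of the adhesion receptor CD2, went from 7.18, 9.51 and 18.3 CPM to 321, 210 and 255 CPM, a log2 change of 4.53 ± 0.41 (SE; edgeR's quasi-likelihood test, adjusted p = 0.00386). CD40LG, the ligand through which T cells help B cells, rose from 173.7, 51.1 and 133.2 CPM to 520.9, 1044 and 1702 CPM.

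The alpha chain of the interleukin 2 receptor, IL2RA, was counted in few cells. No DMSO well had a count, and 5 of 36 PMA wells did, which is 13.9% with an exact binomial 95% interval of 4.67 to 29.5%. The same interval for 0 of 18 DMSO wells was 0 to 18.5%. Both intervals pool the plates and treat cells as independent, so they are no test of the treatment. IL2RA had PMA levels of 10.2, 50.4 and 29.03 CPM, and its adjusted p was 0.0937 by edgeR's quasi-likelihood test. The 1 cytokine of 30 listed that was tested, TNFSF10 (the death ligand TRAIL), rose from 0, 8.02 and 8.66 CPM to 146.5, 238 and 222 CPM (edgeR's quasi-likelihood test, adjusted p = 0.018). Of the other cytokines, 18 had no count in either group. IL2 had 67 counts in 5 PMA wells, and IFNG and CSF2 were among those without a count.

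The members that fell were receptors of trafficking and iron uptake. CXCR4, the chemokine receptor for CXCL12 and a coreceptor of HIV, had 444, 558 and 537 CPM under DMSO and 43.04, 30.3 and 77.5 CPM under PMA, a log2 change of -3.45 ± 0.32 (SE; edgeR's quasi-likelihood test, adjusted p = 0.00386). It was counted in 18 of 18 DMSO wells and 16 of 36 PMA wells, the same numbers after thinning. The transferrin receptor TFRC went from 140, 428 and 432 CPM to 19.6, 89.6 and 77.02 CPM (edgeR's quasi-likelihood test, adjusted p = 0.00476, or 0.0738 without the plate block). In both genes the groups did not overlap.

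**Figure D2:**
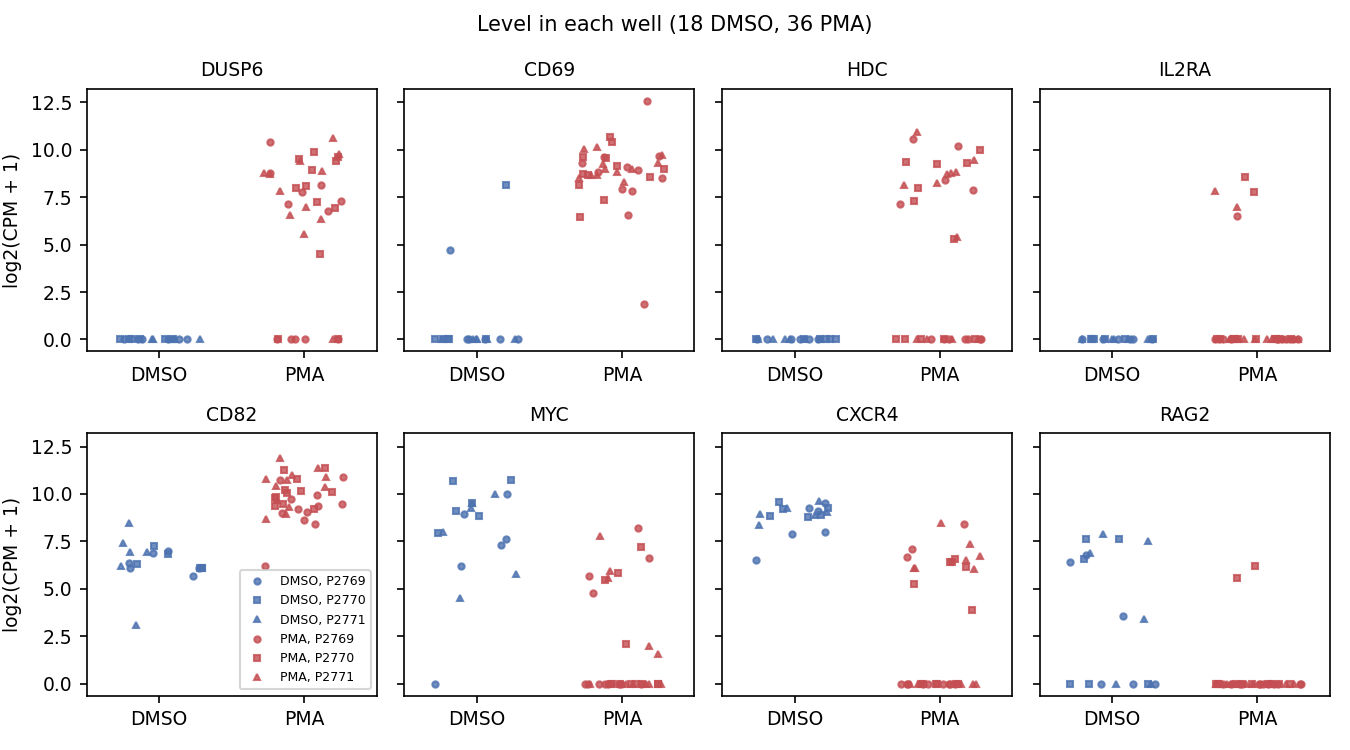
Level of 8 genes in each well, as log2(CPM + 1) on the vertical axis, with 18 DMSO wells in blue and 36 PMA wells in red and a marker shape for each plate. DUSP6 and HDC were at 0 in all DMSO wells and counted in 28 and 20 PMA wells, CD82 was shifted in nearly the whole population, and MYC and CXCR4 were at 0 in most PMA wells.

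Among T cell receptor genes, 9 of 15 tested members rose and none fell, at a median log2 change of 1.70. TRAC, which encodes the constant part of the alpha chain, had 110, 112.9 and 30.6 CPM under DMSO and 1470, 1971 and 925 CPM under PMA. It was counted in 10 of 18 DMSO wells and in 36 of 36 PMA wells, and rose by 4.24 ± 0.27 on the log2 scale (SE; edgeR's quasi-likelihood test, adjusted p = 0.00216). TRAV8-4, the variable segment of the Jurkat receptor, rose beside it, from 63.4, 63.3 and 11.3 CPM to 822, 1111 and 562 CPM.

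The beta chain gene TRBC1 was counted in all wells of both groups, and its log2 change was smaller than that of TRAC. TRBC1 went from 3058, 2552 and 2355 CPM to 7486, 6103 and 6960 CPM, a log2 change of 1.37 ± 0.12 (SE; edgeR's quasi-likelihood test, adjusted p = 0.00371). TRBC1 and TRBC2 are near-identical, so the division of reads between them is uncertain, and TRBV12-3 has a near-identical neighbour too. Of the CD3 subunits, CD3D rose from 1026, 775 and 794 CPM to 2816, 1743 and 2140 CPM (log2 change 1.35 ± 0.14, SE). CD3E and CD3G did not pass, with mean levels of 109.4 and 155.95 CPM for CD3E and 261 and 361 CPM for CD3G under DMSO and PMA (adjusted p = 0.395 and 0.335 by edgeR's quasi-likelihood test). The costimulatory receptor CD28 rose from 51.5, 29.4 and 76.3 CPM to 314, 356 and 297 CPM. The adhesion receptor CD2 rose by 2.87 ± 0.42, and the phosphatase CD45 (PTPRC) by 2.10 ± 0.38, on the log2 scale (SE). CD2 was not called in the joint fit of 18 sums (edgeR's quasi-likelihood test, adjusted p = 0.164), and PTPRC was not called without P2769, without P2770 or without the plate block (adjusted p = 0.0617, 0.0635 and 0.0606, edgeR's quasi-likelihood test).

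Downstream of the receptor, 2 of 30 tested proximal signalling genes rose and none fell, at a median log2 change of 1.38. Without P2769 5 members rose and without P2771 8, with none lower. LAT, the membrane scaffold that gathers phospholipase C gamma and GRB2 after receptor triggering, had 63.4, 90.6 and 66.9 CPM under DMSO and 720, 620 and 703.9 CPM under PMA. The 3 PMA sums lay close together and far above the DMSO sums, and the log2 change was 3.22 ± 0.23 (SE; edgeR's quasi-likelihood test, adjusted p = 0.00239). PTPRCAP, which binds CD45, rose by 1.88 ± 0.20 (SE). The kinases LCK and ZAP70 did not pass, with mean levels of 686 and 871 CPM for LCK and 138.3 and 112.7 CPM for ZAP70 under DMSO and PMA.

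Among protein kinase C isoforms and diacylglycerol sensors, 1 of 18 tested genes rose and none fell. That gene was DGKA, a kinase that removes diacylglycerol, with 32.96, 148.6 and 60.95 CPM under DMSO and 528, 527 and 512 CPM under PMA (log2 change 2.94 ± 0.42, SE; adjusted p = 0.0193, edgeR's quasi-likelihood test). RASGRP1, the exchange factor that PMA binds directly, had means of 16.5 CPM under DMSO and 0.209 CPM under PMA, from 4 counts in 2 of 36 wells, but did not pass (edgeR's quasi-likelihood test, adjusted p = 0.171). PRKCQ, which encodes protein kinase C theta, had mean levels of 53.4 and 65.7 CPM. None of 19 tested NF-kB genes passed, at a median log2 change of 0.66, and the inducible inhibitor NFKBIA stood at means of 41.3 and 42.2 CPM. TNFAIP3, an induced brake of NF-kB, had means of 7.77 and 47.8 CPM (edgeR's quasi-likelihood test, adjusted p = 0.144). Equal weighting of wells called 1 of the 19 NF-kB genes and DESeq2 called 2.

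**Figure D3:**
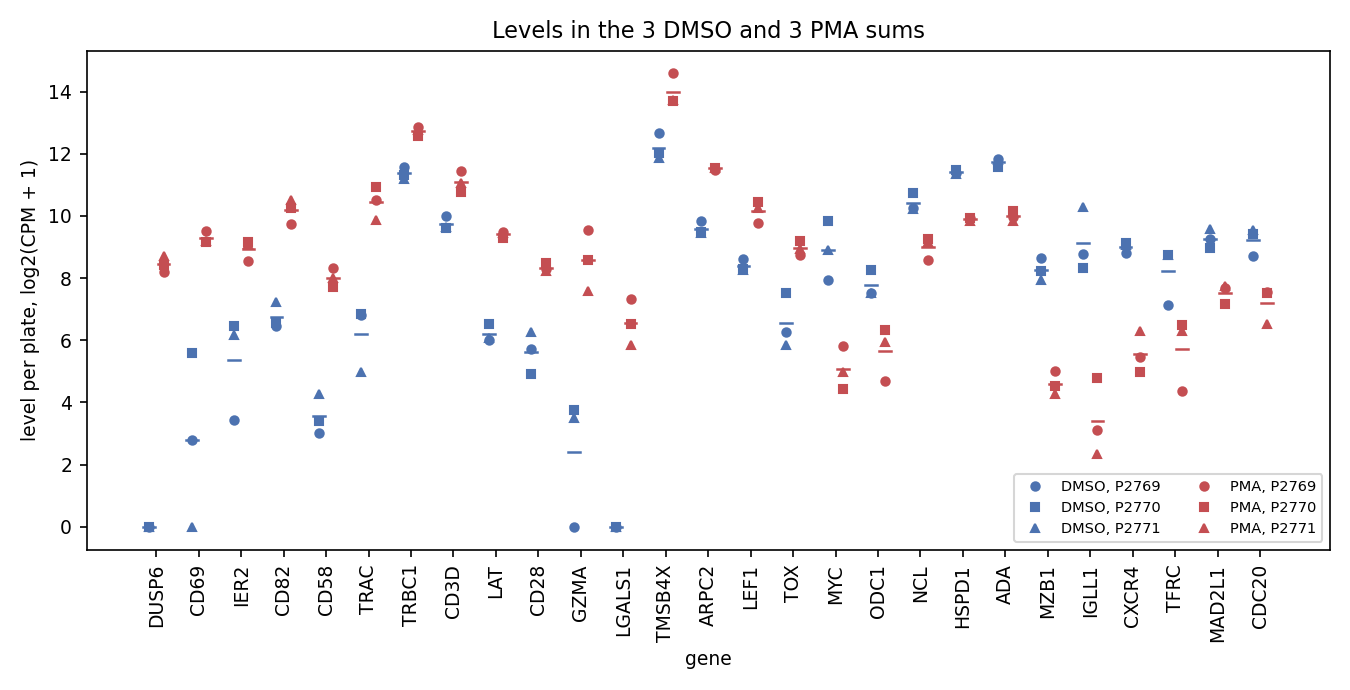
Levels of 27 genes in the 3 DMSO sums (blue) and the 3 PMA sums (red), as log2(CPM + 1) on the vertical axis, with a marker shape for each plate and a bar at the mean of the 3 sums. For every gene drawn the PMA sums lie on 1 side of all DMSO sums.

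Of 24 tested actin and adhesion genes 8 rose and none fell, at a median log2 change of 0.94, and 14 rose without P2771. ARPC2, a subunit of the ARP2/3 complex that branches actin filaments, had 905, 713 and 696 CPM under DMSO and 2877, 3007 and 3002 CPM under PMA (log2 change 1.95 ± 0.15, SE; adjusted p = 0.00266, edgeR's quasi-likelihood test). Profilin (PFN1), which loads actin monomers for polymerisation, rose from 1919, 1853 and 1476 CPM to 5070, 4002 and 3777 CPM. Moesin (MSN), which ties the membrane to actin, rose by 1.71 ± 0.22 and coronin (CORO1A) by 1.27 ± 0.15 on the log2 scale (SE), and MSN was not called without the plate block (edgeR's quasi-likelihood test, adjusted p = 0.107). Thymosin beta 4 (TMSB4X), the main buffer of actin monomers, was at 6482, 4204 and 3733 CPM under DMSO and 24559, 13261 and 13552 CPM under PMA. It rose by 1.81 ± 0.10 on the log2 scale (SE; edgeR's quasi-likelihood test, adjusted p = 0.00154).

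Genes for annexins, vimentin, galectin and proteases formed another list, with 6 of 19 tested members higher and none lower. ANXA1, a phospholipid-binding anti-inflammatory protein, rose from 169.01, 160.8 and 153.9 CPM to 699, 665 and 661 CPM, and its log2 change was 2.07 ± 0.17 (SE). Galectin 1 (LGALS1) had no DMSO count and 158.9, 91.4 and 57.1 CPM with PMA, in 28 of 36 wells, at least 299-fold higher. TIMP1, an inhibitor of metalloproteases, went from 1 count to 1231 counts, a ratio of 556 (95% counting interval 99.5 to 21963). Granzyme A (GZMA), a serine protease of cytotoxic granules, went from 0, 12.5 and 10.3 CPM to 741, 386 and 189.3 CPM and was counted in 35 of 36 PMA wells. The intermediate filament vimentin (VIM) rose from 277, 271 and 280 CPM to 1464, 1017 and 1018 CPM.

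Several of the largest bounds by read counts belonged to genes outside T cell signalling lists, all with no DMSO count. HDC, the enzyme that makes histamine, had 308, 286 and 336 CPM with PMA, in 20 of 36 wells, at least 895-fold higher (edgeR's quasi-likelihood test, adjusted p = 0.00266). ANTXR2, a receptor for anthrax toxin and collagen, had 269, 102.2 and 157.5 CPM in 29 wells, at least 509-fold higher. HS3ST3B1, a heparan sulfate sulfotransferase, had 100.1, 289 and 115.4 CPM in 32 wells, at least 494-fold higher. IL16, a CD4-binding cytokine precursor, was at least 476-fold higher in 28 wells, and the zinc finger repressor BCL6 at least 175.1-fold higher in 22 wells. The guanylate-binding protein GBP2 was at least 220-fold higher in 14 wells, the focal adhesion protein ZYX at least 159.5-fold higher in 30 wells and the semaphorin SEMA4A at least 145.2-fold higher in 13 wells. Without P2770, ZYX and SEMA4A were not called (adjusted p = 0.0671 and 0.0515, edgeR's quasi-likelihood test). PLCH1, a phospholipase C, had 1 DMSO count and 2981 PMA counts in 27 wells, a ratio of 1345 (95% counting interval 241 to 53160). With 3 wells as the limit for a count of 0, a gene counted in 0 of 18 DMSO wells may still be counted in 16.7% of such cells. The folds given against 3 counts are therefore no bounds over cells.

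Upstream windows of HS3ST3B1 and PLCH1 are shown as examples of starts that were silent or nearly so under DMSO; of the 82 named genes with a RefSeq window, they are among 12 whose window no GENCODE exon overlaps. HS3ST3B1 lies on the plus strand with its window at chr17:14300831-14301080 and PLCH1 on the minus strand with its window at chr3:155745072-155745321 (RefSeq, GRCh38.p14), each written in the direction of transcription. Capitals mark the E-box CACGTG, whose first base is at -152 from the PLCH1 start; none of the motifs searched was found in the HS3ST3B1 window.
HS3ST3B1: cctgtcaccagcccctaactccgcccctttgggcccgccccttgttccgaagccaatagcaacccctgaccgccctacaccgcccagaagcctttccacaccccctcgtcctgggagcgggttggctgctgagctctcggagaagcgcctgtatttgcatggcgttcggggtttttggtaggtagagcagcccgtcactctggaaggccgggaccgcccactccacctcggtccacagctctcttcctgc
PLCH1: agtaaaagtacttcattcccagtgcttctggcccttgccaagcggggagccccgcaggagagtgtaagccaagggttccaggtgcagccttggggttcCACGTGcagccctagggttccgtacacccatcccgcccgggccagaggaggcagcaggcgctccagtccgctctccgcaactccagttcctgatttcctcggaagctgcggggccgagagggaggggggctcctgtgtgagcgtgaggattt

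Genes of the leukaemic and precursor state moved both ways. Of 16 tested lymphoid precursor genes 2 rose and 4 fell, against 3 and 2 without P2769 and 1 and 4 without P2770. IGLL1, a surrogate light chain of the pre-B receptor that Jurkat cells also express, had 438, 321 and 1259 CPM under DMSO and 7.71, 26.4 and 4.12 CPM under PMA, the largest fall among the called genes, with a log2 change of -5.77 ± 0.89 (SE; edgeR's quasi-likelihood test, adjusted p = 0.0264, or 0.0515 without P2769). MZB1, a chaperone of the endoplasmic reticulum known from B lineage cells, went from 396, 297 and 246 CPM to 31.01, 22.2 and 18.5 CPM, a log2 change of -3.72 ± 0.25 (SE; edgeR's quasi-likelihood test, adjusted p = 0.0022). Adenosine deaminase (ADA), which is very active in immature thymocytes, went from 3632, 3043 and 3544 CPM to 1000, 1145 and 908 CPM, a log2 change of -1.75 ± 0.15 (SE; edgeR's quasi-likelihood test, adjusted p = 0.00372). The recombinase genes were low: RAG2 had 623 DMSO counts in 10 of 18 wells and 71 PMA counts in 2 of 36 wells (edgeR's quasi-likelihood test, adjusted p = 0.143). RAG1 had 55 DMSO counts and none with PMA, and the terminal transferase gene DNTT was counted in 4 DMSO wells and in none of 36 PMA wells, and neither was tested.

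The members of that list that rose were TOX and CD1C. TOX, a nuclear factor of thymocyte selection, went from 76.5, 180.98 and 56.3 CPM to 431, 588 and 494 CPM (log2 change 2.44 ± 0.30, SE; adjusted p = 0.0121, edgeR's quasi-likelihood test). Of 25 tested transcription factors of T cell leukaemia 2 rose and none fell: LEF1, a WNT effector, from 395, 313 and 303 CPM to 876, 1399 and 1234 CPM, and STAT5A, a mediator of cytokine signals, from 0, 20.8 and 22.3 CPM to 167.7, 323 and 348 CPM. TAL1, GATA3, RUNX1 and MYB did not pass (adjusted p = 0.42, 0.248, 0.898 and 0.526, edgeR's quasi-likelihood test).

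MYC, the growth-promoting transcription factor, fell. Its DMSO levels were 243, 922 and 473 CPM and its PMA levels 55.997, 20.6 and 30.3 CPM, and it was counted in 17 of 18 DMSO wells against 13 of 36 PMA wells, or 16 and 10 after thinning. The log2 change was -3.86 ± 0.64 (SE; edgeR's quasi-likelihood test, adjusted p = 0.0329), and with a stricter well filter MYC was not called (adjusted p = 0.0527). Ornithine decarboxylase (ODC1), a polyamine enzyme and standard MYC target, fell by 2.13 ± 0.33 on the log2 scale (SE), but was not called without P2770 (edgeR's quasi-likelihood test, adjusted p = 0.0671). Of 37 tested ribosome biogenesis genes 5 fell and none rose, at a median log2 change of -0.92, and 2 fell without P2769 or without P2770. Nucleolin (NCL) went from 1224, 1694 and 1194 CPM to 383, 607 and 571 CPM, and dyskerin (DKC1), which guides RNA pseudouridylation, from 359, 479 and 414 CPM to 121.7, 209 and 122.05 CPM. The 78 tested cytoplasmic ribosomal protein genes had a median log2 change of -0.26 and none was called.

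**Figure D4:**
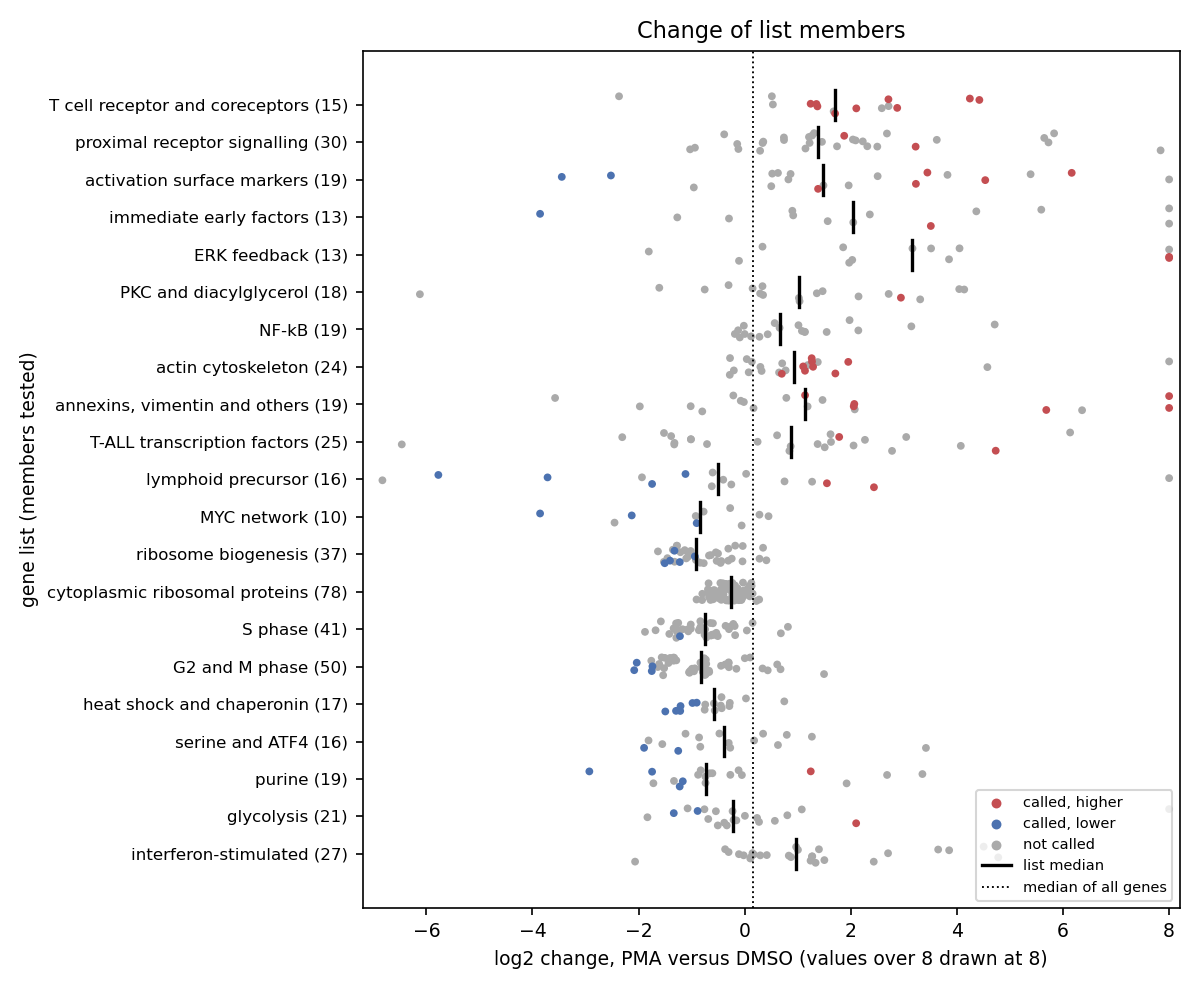
Log2 change with PMA (horizontal axis; 11 values over 8 are drawn at 8) of the tested members of 21 gene lists, with red and blue points for called genes, grey points for the others and a bar at the list's median. The dotted line is the median of all 9240 genes tested, 0.16; the 9 called T cell receptor genes lie to its right, and the medians of ribosome biogenesis, S phase, G2 and M phase and chaperone genes to its left.

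In 2 lists of cell division genes every call was lower, beside 0.898% called lower among all 9240 genes tested. Of 50 tested G2 and M phase genes 4 fell and none rose, at a median log2 change of -0.83, and of 41 S phase genes 1 fell and none rose, at a median of -0.76. On 3 of 3 plates 20 of the 50 and 26 of the 41 were lower. MAD2L1, a spindle checkpoint protein, had 610, 504 and 757 CPM under DMSO and 207, 141.5 and 214 CPM under PMA (log2 change -1.74 ± 0.18, SE; adjusted p = 0.00563, edgeR's quasi-likelihood test). It was counted in 18 of 18 DMSO wells and 25 of 36 PMA wells. CDC20, the activator of the anaphase-promoting complex, went from 417, 689 and 750 CPM to 186.2, 181.1 and 92.03 CPM, BUB1B fell by 2.08 ± 0.32 and the kinetochore protein NUF2 fell by 1.75 ± 0.28 on the log2 scale (SE). MKI67, a standard proliferation marker, had means of 71.7 and 68.9 CPM. With equal weight per well, log2(CPM + 1) and limma, which were changed together, the 2 lists had 30 and 24 members called lower, with medians of -2.76 and -1.87. Without P2769 the lists had 14 and 0 members called lower and NUF2 was not called (edgeR's quasi-likelihood test, adjusted p = 0.0606), without P2770 they had 3 and 0, and without P2771 4 and 5. BUB1B was not called without P2770 or without P2771 (adjusted p = 0.0515 and 0.17), nor without the plate block (0.0846), by the same test, and CDC20 was not called with a stricter well filter (0.0829). Cells were not assigned to cycle phases, and fewer dividing cells and less RNA per dividing cell cannot be told apart in the sums.

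Calls among chaperones and metabolic enzymes were mostly lower. Of 17 tested heat shock and chaperonin genes 6 fell and none rose, at a median log2 change of -0.58. HSPD1, the mitochondrial chaperonin HSP60, had 2645, 2871 and 2594 CPM under DMSO and 976, 988 and 910 CPM under PMA, a log2 change of -1.50 ± 0.13 (SE; edgeR's quasi-likelihood test, adjusted p = 0.00336). Its partner HSPE1 (HSP10), whose gene is its head-to-head neighbour, went from 733, 506.996 and 353 CPM to 351, 170 and 178.4 CPM. HSP90AA1, the inducible cytosolic HSP90, fell by 1.29 ± 0.15, and the chaperonin subunit CCT5 by 1.22 ± 0.14 on the log2 scale (SE). HSPE1 was not called without P2769 or without P2770 (adjusted p = 0.0728 and 0.111), nor without the plate block (0.144), by edgeR's quasi-likelihood test.

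Of 16 tested serine synthesis and ATF4 genes 2 fell and none rose: PSAT1 went from 1090, 1205 and 1303 CPM to 244, 389 and 350 CPM, and PHGDH, which catalyses the first step of serine synthesis, from 780, 517.4 and 626 CPM to 244, 287 and 267 CPM. Of 19 purine genes 4 fell and 1 rose. The nucleoside transporter SLC29A1 fell by 2.93 ± 0.34 and the purine synthesis enzyme GART by 1.22 ± 0.23, whereas purine nucleoside phosphorylase (PNP), which acts after ADA in purine breakdown, rose from 238, 307 and 289 CPM to 669, 689 and 612 CPM. Of 21 glycolysis genes 2 fell and 1 rose: LDHA, which makes lactate, went from 4025, 5686 and 4992 CPM to 1789, 2053 and 1933 CPM, and the isoenzyme ALDOC rose from 38.4, 36.6 and 56.3 CPM to 206, 181.1 and 167.9 CPM. Without P2769, PHGDH, GART, PNP and ALDOC were not called (adjusted p = 0.088, 0.112, 0.0538 and 0.0566), and without P2770 GART and ALDOC were not (0.0614 and 0.0636, edgeR's quasi-likelihood test).

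None of 27 interferon-stimulated genes, 9 BCL2 family genes, 15 genes of G1 cyclins and CDK inhibitors or 13 mitochondrially encoded genes was called by edgeR's quasi-likelihood test with Benjamini-Hochberg adjustment. Their median log2 changes were 0.97, 0.21, -0.13 and 0.11. DESeq2 called 3, 1, 3 and 1 of them. Of 23 sterol synthesis genes 1 fell, INSIG1 (log2 change -0.94 ± 0.17, SE), a sterol-dependent inhibitor of the processing of sterol-responsive transcription factors. INSIG1 was not called without P2769, without P2770 or without the plate block (adjusted p = 0.119, 0.111 and 0.0522, edgeR's quasi-likelihood test).

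The PMA change was then compared with that in J-Lat A2, the Jurkat clone with an integrated viral construct, on the same plates with its own controls (35 DMSO and 79 PMA wells kept). Of 10718 genes tested, 2 differed between the lines, or 0.0187% of them (edgeR's quasi-likelihood test of the line by treatment term, Benjamini-Hochberg adjustment). TMSB4X rose less in Jurkat, by 1.81 against 2.80 on the log2 scale in J-Lat A2. The difference was -0.98 ± 0.10 (SE; edgeR's quasi-likelihood test, adjusted p = 0.00503). On this fit's scale its level went from 6360, 4117 and 3663 CPM to 24129, 12965 and 13301 CPM in Jurkat and from 4327, 2576 and 2626 CPM to 31678, 17655 and 17249 CPM in J-Lat A2. ADA fell less in Jurkat, with a log2 change of -1.75 against -3.19, a difference of 1.46 ± 0.20 (SE; edgeR's quasi-likelihood test, adjusted p = 0.0495). Its PMA levels were 982, 1120 and 892 CPM in Jurkat and 410, 318 and 388 CPM in J-Lat A2. Neither difference passed when any 1 plate was left out or without the plate block.

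Of the 200 genes called in Jurkat, all but 3 were also tested in a fit of J-Lat A2 alone, and each of those had the same sign there. The calls shared by both fits made up 63.5% of the Jurkat calls and 43.5% of the 292 calls in J-Lat A2. Across 5854 genes of at least 20 CPM, which are not independent, the log2 changes of the lines had a Pearson r of 0.65 and a Spearman rho of 0.54. A gene called in 1 line alone is not shown to differ: CD69 had log2 changes of 6.16 and 13.2 with an adjusted p of 0.587 for the difference, and EGR1 and IL2RA, not called in Jurkat, had adjusted p of 1 and 1 for it (edgeR's quasi-likelihood test).

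**Figure D5:**
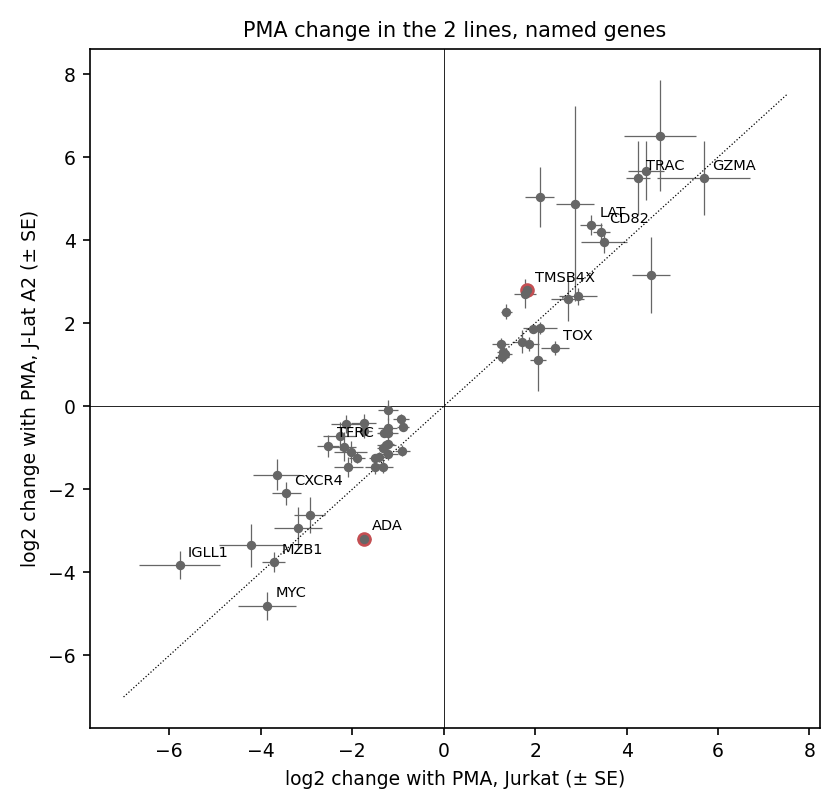
Log2 change with PMA in Jurkat (horizontal axis) and in J-Lat A2 (vertical axis) for 58 named genes called in Jurkat and tested in both lines with changes under 7.5 in size, with SE bars and a dotted line of equal change. All points lie in the quadrants of equal sign; TMSB4X and ADA, in red, are the 2 genes whose difference passed the test.

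PMA was last set directly against SAHA, a histone deacetylase inhibitor given at 1 uM to 36 Jurkat wells of the same plates. Of 10325 genes 689 differed, or 6.67%, with 369 higher and 320 lower under PMA (edgeR's quasi-likelihood test). Many of the 200 genes called for PMA against DMSO were among them: 94 of those that rose were higher with PMA than with SAHA, 29 of the 83 that fell were lower and 6 were higher. The same PMA sums served to pick these genes and to compare them with SAHA. Agreement in direction is thus partly built in and is no separate evidence. The receptor and adaptor genes stood far apart between the agents. The PMA level exceeded the SAHA level by 6.95 on the log2 scale for TRAC (adjusted p = 0.000319), 3.58 for CD3D (2.54e-06), 4.57 for LAT (3e-05) and 5.21 for PTPRCAP (3e-05), each by edgeR's quasi-likelihood test. These gaps are not the PMA change alone. Log2 changes of SAHA against DMSO were -2.93 for TRAC, -2.24 for CD3D, -1.36 for LAT and -3.38 for PTPRCAP. Their adjusted p were 0.147, 0.00275, 0.169 and 0.0164 by edgeR's quasi-likelihood test in a separate fit. HDC, ANTXR2 and GBP2 were listed at 0 with SAHA on every plate. PVRIG, an inhibitory receptor of lymphocytes, did not differ beyond the threshold between PMA and DMSO, but was at 71.4, 79.9 and 102.4 CPM with PMA and listed at 0 with SAHA on all plates.

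For some falls no difference from SAHA was detected. The log2 difference of PMA from SAHA was 0.33 for MYC (adjusted p = 0.84), -0.24 for MZB1 (adjusted p = 0.698) and -0.28 for HSPD1 (adjusted p = 0.182), by edgeR's quasi-likelihood test, which does not show that the agents act alike. Other genes were lower with PMA than with SAHA: CXCR4 was at 42.5, 29.9 and 76.4 CPM with PMA and 947, 644 and 623 CPM with SAHA, a log2 difference of -3.96 ± 0.33 (SE; edgeR's quasi-likelihood test, adjusted p = 0.000143). The mitotic genes CDC20 and NUF2 were lower with PMA than with SAHA by log2 differences of -3.07 and -2.49, and the DNA glycosylase NEIL3 by -3.55. CYP4F2, an omega-hydroxylase of fatty acids, was listed at 0 in every PMA sum and at 25.7, 96.0 and 78.2 CPM with SAHA.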

How the data were processed

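Single cells were sorted into 96-well plates and made into full-length cDNA libraries by template switching, per the labels' protocols. The authors deposited a table of expected counts per gene and well, not scaled for depth; the submitters' processing notes name GRCh38.p13, alevin and Salmon 1.5.1 without roles. Of the nonzero deposited values 13.72% were not whole. The table holds 20302 features, of which 20301 carry Ensembl identifiers; HIVmini is the other. No 2 columns were identical and doublets were not sought, since cells were sorted 1 to a well.

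Counts of kept wells were summed per treatment and plate, rounded, and tested in R 4.3.3 with edgeR 4.0.16 (filterByExpr, TMM, quasi-likelihood F test, plate as a block, two-sided, Benjamini-Hochberg adjustment over all tested genes, threshold 0.05). The fit of 6 sums had 2 residual and 4.98 prior degrees of freedom and a common biological coefficient of variation of 0.733. Line and agent contrasts used 12 and 9 sums. DESeq2 1.42.0 and limma 3.58.1 (mean of log2(CPM + 1) per well) served as alternatives. The scripts were tested on simulated data. The plate numbers in the labels mark shared plates; deviations of the paired sums from their group means correlated at 0.13, 0.052 and 0.053 over genes, and those of unpaired sums at -0.091 to 0.057.

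The genes named are, from calls at 20 CPM or more, the 12 up and 12 down that changed most, at most 4 called members per list, those that changed most (the 2 most abundant where a list had no call), 10 fixed genes, and 5 each way for the line and agent contrasts. Not every gene this rule gives is described. Other genes named are members of the lists or, in the closing section, were chosen after their values were seen. Members and lists were chosen with earlier results of these data known. Promoter windows are RefSeq's. Left out were SAHA wells and J-Lat A2 wells except in the stated contrasts, and wells of the other plates.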

Additional observations from a re-analysis of the deposited data

Results flagged for a closer look

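Both results below were singled out because the change with PMA differed between Jurkat and J-Lat A2 by a test of the difference itself, edgeR's quasi-likelihood test with Benjamini-Hochberg adjustment. For ADA the Jurkat change minus the J-Lat A2 change was 1.465 on the log2 scale (adjusted p = 0.0495), with the same sign on 3 of 3 plates. For TMSB4X it was -0.9759 (adjusted p = 0.00503), also with the same sign on 3 of 3 plates. Both genes were counted in 18 of 18 Jurkat DMSO wells and in 36 of 36 Jurkat PMA wells.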

How the results depend on the processing

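The 200 genes called for PMA against DMSO, 2.16% of those tested, kept their sign in all 13 alternatives. The alternative without a well filter repeated the main fit, since every well had passed. Called genes had moved the same way on every plate, so leaving out a plate was unlikely to change a sign. DESeq2 called 980 (10.6%), no filter on low counts 314 (2.49%), equal weight per well, which also changed the scale and the test, 899 (9.73%) and a joint fit of 18 sums 632 (5.51%); leaving out 1 plate gave 1.47 to 2.9%. Without the plate block 217 were called (2.35%), and for PMA against SAHA 519 (5.03%). Of 96 single genes named, 9 lost their call without the block, 16 without P2769, 18 without P2770 and 5 without P2771. For the line difference, where 2 genes (0.0187%) were called, no block gave 0 (0%), DESeq2 0.942%, its size factors in edgeR 1 gene (0.00933%), equal weight 4 (0.0373%), and leaving out 1 plate 0 to 0 (lowest adjusted p 0.127, edgeR's quasi-likelihood test). At an unadjusted p under 0.05 there were 586 genes, and 458 to 603 with 1 plate left out. For PMA against SAHA, 6.67% of genes were called, by DESeq2 1432 (13.9%), with equal weight 1368 (13.2%), and with 1 plate left out 2.2% (without P2770) to 4.82%. Of single genes, 4 that were not called changed sign in 1 setting each: CCNF to 0.20 with a stricter well filter, PMAIP1 to -0.23 with equal weight, MT-CO1, at -0.067 to 0.095 with 1 plate left out, without P2770, and NKG7, at -1.04 to 2.98, without P2771. The causes were not tested. List medians of BCL2 family and G1 genes changed sign between settings. With 8740204 DMSO counts against 19364893 PMA counts, the limit that a count of 0 allows was 0.343 CPM under DMSO and 0.155 CPM under PMA.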

Other observations

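The genes here lie outside the lists and are among the 200 calls. RCC1, CXorf49B, TSHR and FAT1 belong to the named genes that changed most, and the others were chosen after their values were seen. CD53, a tetraspanin of leukocytes, rose from 190, 160 and 191.5 CPM in the DMSO sums to 1120, 874 and 892 CPM in the PMA sums, and CD48, a ligand of the SLAM family, rose by 2.17 ± 0.31 on the log2 scale (SE). CD52, a small glycoprotein of lymphocytes, went from 0, 0.892 and 0 CPM to 100.9, 84.3 and 66.3 CPM, and CD84, a SLAM receptor, from 2.96, 2.97 and 22.6 CPM to 194.8, 184.5 and 118.9 CPM. PI16, a secreted peptidase inhibitor, rose from 6.34, 4.46 and 10.7 CPM to 578, 630 and 532 CPM. STAT3 rose by 2.33 ± 0.38 on the log2 scale (SE).

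RAN, the GTPase that drives nuclear transport, went from 3170, 2958 and 2799 CPM to 1580, 912 and 864 CPM, and its exchange factor RCC1 from 114.9, 63.9 and 155.9 CPM to 5.24, 8.20 and 13.0 CPM. The tubulin TUBA1B, one of several similar copies, fell by 1.44 ± 0.13, and the chromatin protein HMGB1 by 1.29 ± 0.17 on the log2 scale (SE). CXorf49B, 1 of 2 near-identical X-linked copies and therefore uncertain, went from 90.4, 21.4 and 27.3 CPM to 2.01, 1.19 and 0.99 CPM. TSHR, the thyrotropin receptor, went from 51.97, 138.2 and 43.3 CPM to 6.32, 3.28 and 2.31 CPM, and the cadherin FAT1 from 61.3, 95.4 and 84.6 CPM to 6.32, 9.40 and 11.1 CPM. CXorf49B was not called when any 1 plate was left out (adjusted p = 0.0607 to 0.219), TSHR without P2770 (0.282) and FAT1 without P2770 or P2771 (0.162 and 0.0607), by edgeR's quasi-likelihood test.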
